A study of Mus musculus with 4 samples.

Results

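The pentose phosphate pathway takes glucose 6-phosphate out of glycolysis. Its oxidative branch yields NADPH, the electron donor for glutathione reduction and for lipid synthesis, and ribulose 5-phosphate. Its non-oxidative branch interconverts sugar phosphates of different lengths, so that ribose 5-phosphate for nucleotides can be made from, or returned to, glycolytic intermediates. In muscle cells the pathway is known as a source of NADPH for redox defence and of ribose for nucleotide synthesis.

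The enzymes followed here are the products of 8 mouse genes, chosen by name from both branches: G6pdx, H6pd, Pgls and Pgd of the oxidative branch and Rpia, Rpe, Tkt and Taldo1 of the non-oxidative branch. Every probe set whose annotation held exactly 1 of these symbols was taken, which gave 14 of the 34945 single-symbol probe sets, for 7 of 18193 genes. No probe set in the annotation used carried G6pdx, the gene of cytosolic glucose 6-phosphate dehydrogenase, as its single symbol, so that gene was not analysed here. Of the 14 probe sets, 12 had a mean log2 signal above 6.03, the median of all probe sets other than controls, and were tested. The other 2, 1 for Rpe and 1 for Tkt, stayed below it.

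The cells were C2C12, a mouse myoblast line that forms myotubes in low serum. In the shLSD1 group (2 arrays) they stably carried a plasmid for a short hairpin RNA against LSD1, a histone demethylase encoded by Kdm1a. In the shControl group (2 arrays) they carried a plasmid for a hairpin with no target. Both groups were selected with hygromycin, which was present at 750 µg/mL during growth, were grown in DMEM with 25 mM glucose and 10% fetal bovine serum, and were moved to 2% horse serum with the same glucose. After 48 hours of differentiation, total RNA was extracted and hybridised to 3' expression arrays. As far as the labels say, 1 plasmid product stands for each hairpin. They do not say how many stable selections were made, so knockdown and selection cannot be told apart. The labels do not state whether the arrays of a group stem from different cultures, and the p-values therefore cover only the spread among these 4 arrays, possibly a technical one.

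Kdm1a checked the labels. Its signal was 922 and 1034 on the shLSD1 arrays, against 4603 and 4588 on the shControl arrays, a log2 fold change of -2.23 (SE 0.07, limma with Benjamini-Hochberg adjusted p = 2.89e-05). Median signals of the 4 arrays lay between 67.3 and 69.7. For Gapdh, the ratio of 3' to 5' control probe sets lay between 0.774 and 0.782 on the shLSD1 arrays, against 0.755 and 0.765 on the shControl arrays. For Actb it was 1.188 and 1.162 on the shLSD1 arrays, against 1.180 and 1.175 on the shControl arrays, so the groups overlapped. All 9 muscle markers examined were above the filter, and 7 of them were lower in shLSD1 cells, with a summed signal of 91278 and 100659 on the shLSD1 arrays, against 134802 and 132483 on the shControl arrays. The adipocyte markers summed to 178 and 158 on the shLSD1 arrays, against 165 and 191 on the shControl arrays. Macrophage markers gave 236 and 250 on the shLSD1 arrays, against 247 and 324 on the shControl arrays, and endothelial markers gave 142 and 207 on the shLSD1 arrays, against 137 and 125 on the shControl arrays. The fibroblast list summed to 8544 and 5742 on the shLSD1 arrays, against 11699 and 11284 on the shControl arrays, and 3 of its 5 tested genes were lower in shLSD1 cells. The neuronal list summed to 3550 and 3612 on the shLSD1 arrays, against 2004 and 1944 on the shControl arrays. The epithelial list summed to 484 and 457 on the shLSD1 arrays, against 210 and 244 on the shControl arrays. In each of these lists 2 genes were higher in shLSD1 cells. The neuronal markers Rbfox3, Snap25 and Syt1 and the epithelial markers Epcam, Krt18 and Cldn4 stayed below the filter. The part of these shifts in the results below was not tested, and in bulk RNA fewer cells of a type and less RNA per cell cannot be told apart.

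Of the 7 measured pathway genes, Tkt alone passed the test, and it was higher in shLSD1 cells. Each gene is represented by 1 probe set, the brightest of those without x in the name. The x marks a type prone to cross-hybridisation, used only where a gene had no other, and further types were not set aside. The change is given as the log2 signal of shLSD1 minus that of shControl, with p-values adjusted over 10879 genes and a threshold of 0.05. Over all tested genes 15.8% passed in either direction, 8.75% as higher and 7.09% as lower in shLSD1 cells, so 1 of 7 is close to the background. The balance of directions over all genes turned with scaling, with 952 higher and 771 lower as deposited, and 874 higher and 927 lower after median centring. Rpia and Taldo1 had positive changes of smaller size that did not pass, and H6pd, Pgls, Pgd and Rpe lay between -0.12 and 0.06. The median change of the 7 genes was 0.06, against 0.00 (0.0036) over all tested genes. With 2 arrays against 2, an exact two-sided permutation test of a single gene cannot go below p = 0.333, so the limma fit, which shares the spread across genes, is the test given.

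**Figure D1:**
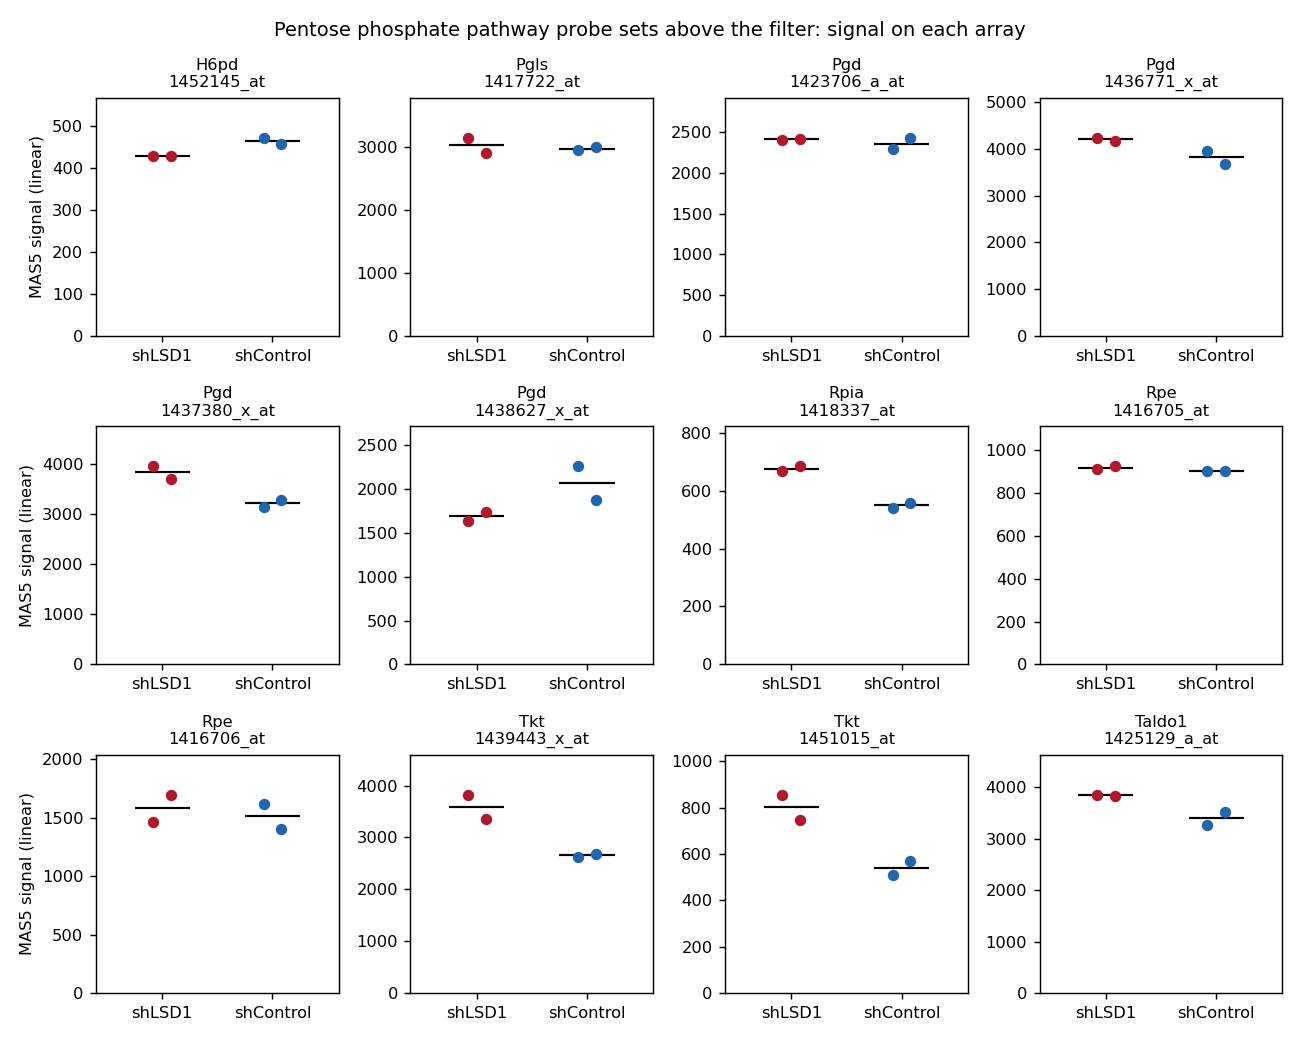
Signal of each of the 12 tested pathway probe sets on every array (linear MAS5 signal, axes from 0). Points are arrays, shLSD1 in red on the left and shControl in blue on the right, and black lines are group means. Of the 12, 7 lie higher on both shLSD1 arrays, among them both Tkt probe sets and those of Rpia and Taldo1. On both shLSD1 arrays 2 lie lower, and in 3, Pgls among them, the groups overlap.

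In the oxidative branch, H6pd encodes hexose-6-phosphate dehydrogenase, which carries out the first steps of the branch inside the endoplasmic reticulum. Its signal was 429 and 430 on the shLSD1 arrays, against 473 and 458 on the shControl arrays. Both shLSD1 values were below both shControl values, by a log2 fold change of -0.12 (95% confidence interval -0.35 to 0.12, limma adjusted p = 0.489). Groups that do not overlap in this direction were found for 29.4% of all tested genes. The reductase Hsd11b1, which regenerates active glucocorticoid with NADPH made by the H6pd enzyme in the same compartment, had 246 and 169 on the shLSD1 arrays, against 425 and 478 on the shControl arrays. The log2 fold change of Hsd11b1 was -1.15 with an SE of 0.19 (limma adjusted p = 0.00714), and the call did not hold without shControl replicate 2 (adjusted p = 0.0746) or without the intensity trend in the variance model (adjusted p = 0.0620).

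Pgls encodes 6-phosphogluconolactonase, the second enzyme of the branch. Its signals were 3151 and 2901 on the shLSD1 arrays, against 2949 and 3000 on the shControl arrays. One shLSD1 value lay above and the other below both shControl values, and the log2 fold change of 0.02 had an interval of -0.12 to 0.16 (limma adjusted p = 0.831).

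Pgd encodes 6-phosphogluconate dehydrogenase, which makes the second NADPH of the branch and releases carbon dioxide. Its 4 probe sets did not move together. The probe set that represents the gene, 1423706_a_at, gave 2403 and 2418 on the shLSD1 arrays, against 2287 and 2432 on the shControl arrays, so the groups overlapped (log2 fold change 0.03, interval -0.11 to 0.17, limma adjusted p = 0.760). Over all 12 tested member probe sets, 3 passed as higher and 0 as lower, against 6.43% and 5.38% of all tested probe sets. The groups did not overlap for 9 of them, 7 higher and 2 lower, against 56.3% of all tested probe sets, 28.3% higher and 28% lower. The other 3 Pgd probe sets are of the type prone to cross-hybridisation, marked by x in the name.

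Among these, 1437380_x_at had 3955 and 3700 on the shLSD1 arrays, against 3131 and 3288 on the shControl arrays. Tested among the 19958 single-symbol probe sets above the filter, of which 11.8% passed, it was higher by 0.25 (SE 0.06, limma adjusted p = 0.0287). That call was lost without shLSD1 replicate 1 (adjusted p = 0.0546), without shControl replicate 1 (adjusted p = 0.230), without shControl replicate 2 (adjusted p = 0.119), with no filter (adjusted p = 0.0666) and without the intensity trend (adjusted p = 0.186). The probe set 1436771_x_at had 4238 and 4173 on the shLSD1 arrays, against 3959 and 3684 on the shControl arrays, a difference of 0.14 (limma adjusted p = 0.157). In the opposite direction, 1438627_x_at had 1639 and 1738 on the shLSD1 arrays, against 2262 and 1874 on the shControl arrays, a difference of -0.29 (SE 0.09, limma adjusted p = 0.0894). Between the probe sets with the highest and the lowest change, the log2 ratio of 1437380_x_at to 1438627_x_at was 1.27 and 1.09 on the shLSD1 arrays, against 0.47 and 0.81 on the shControl arrays. A gene-level direction for Pgd thus depends on which probe set is read, and the mean of all 4 differed by 0.03 (limma adjusted p = 0.722).

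**Figure D2:**
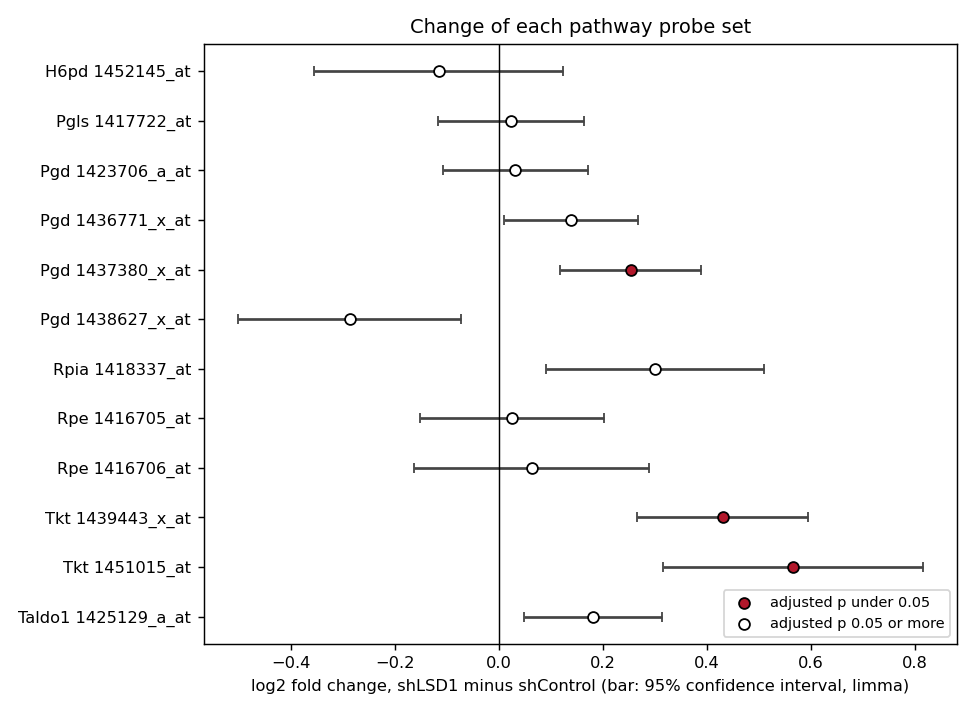
Log2 fold change of each tested pathway probe set, shLSD1 minus shControl, with its 95% confidence interval from limma. Filled points passed an adjusted p of 0.05 over 19958 probe sets. These are both Tkt probe sets and 1 of 4 Pgd probe sets, while another Pgd probe set lies at -0.29.

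In the non-oxidative branch, Tkt encodes transketolase, which moves units of a pair of carbons between sugar phosphates and so joins the pathway to glycolysis. Its representative probe set, 1451015_at, had signals of 856 and 746 on the shLSD1 arrays, against 510 and 571 on the shControl arrays. Its mean was 801 ± 78.1 in shLSD1 cells and 541 ± 43.4 in shControl cells (SD, n = 2 each), and the groups did not overlap. Tkt was 1.48-fold higher, a log2 fold change of 0.57 (SE 0.11, interval 0.32 to 0.82, limma adjusted p = 0.0117). Of the 10879 tested genes, 550 had a larger positive change. A second probe set, 1439443_x_at, had 3829 and 3355 on the shLSD1 arrays, against 2630 and 2689 on the shControl arrays. It was higher by 0.43 (SE 0.07, limma adjusted p = 0.00776 over probe sets), and among probe sets 1451015_at had an adjusted p of 0.0138. The log2 ratio of 1451015_at to 1439443_x_at was -2.16 and -2.17 on the shLSD1 arrays, against -2.37 and -2.23 on the shControl arrays. The third Tkt probe set, 1436605_at, was below the filter, with 51.9 and 6.85 on the shLSD1 arrays, against 29.4 and 14.8 on the shControl arrays, and had no stable order.

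The Tkt call was lost without shControl replicate 1, where the log2 fold change was 0.48 (limma adjusted p = 0.0994), without the intensity trend (0.57, limma adjusted p = 0.0670), and with the mean of all 3 probe sets, the dim one included (0.28, limma adjusted p = 0.675). Tested among probe sets, 1451015_at did not pass without shControl replicate 1 (limma adjusted p = 0.111), without shControl replicate 2 (limma adjusted p = 0.0503) or without the trend (limma adjusted p = 0.1003). Likewise, 1439443_x_at did not pass without shControl replicate 1 (limma adjusted p = 0.0771), without shControl replicate 2 (limma adjusted p = 0.0621) or without the trend (limma adjusted p = 0.115). With the mean of the 2 probe sets above the filter the change of Tkt was 0.50 (SE 0.08, limma adjusted p = 0.00793).

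Rpia encodes ribose 5-phosphate isomerase, which makes ribose 5-phosphate from ribulose 5-phosphate. Its single probe set had 668 and 684 on the shLSD1 arrays, against 541 and 557 on the shControl arrays. The groups did not overlap, and the arrays within each differed by less than the distance between the groups. The log2 fold change was 0.30 (SE 0.09, interval 0.10 to 0.50), with an unadjusted limma p of 0.0101 and an adjusted p of 0.0582, just outside the threshold. At the threshold of 0.05, Rpia passed under 1 of the other settings, the mean of probe sets above the filter (limma adjusted p = 0.0450). There its own values are the same and the variance fit over the other genes differs.

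Rpe encodes ribulose 5-phosphate 3-epimerase, which makes xylulose 5-phosphate, a substrate of transketolase. Its representative probe set, 1416706_at, gave 1461 and 1700 on the shLSD1 arrays, against 1617 and 1407 on the shControl arrays. The groups overlapped, with a log2 fold change of 0.06 (interval -0.17 to 0.29, limma adjusted p = 0.709). For 1416705_at the values were 911 and 925 on the shLSD1 arrays, against 903 and 900 on the shControl arrays, a difference of 0.03 (limma adjusted p = 0.871 over probe sets). The third, 1448444_at, was below the filter with 54.5 and 48.1 on the shLSD1 arrays, against 32.7 and 41.3 on the shControl arrays, and was not tested.

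Taldo1 encodes transaldolase, which moves dihydroxyacetone units and, with transketolase, completes the branch. Its signals were 3861 and 3831 on the shLSD1 arrays, against 3266 and 3525 on the shControl arrays. Both shLSD1 values were above both shControl values, a log2 fold change of 0.18 (SE 0.06, interval 0.05 to 0.31), with an unadjusted limma p of 0.0140 and an adjusted p of 0.0713.

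Rpia, Tkt and Taldo1 were thus the 3 of 7 genes with both shLSD1 signals above both shControl signals, an order found for 30.7% of all tested genes. H6pd had the opposite order, so the groups did not overlap for 4 of the 7, against 60.1% of all tested genes. Averaged over the branch, the log2 signal relative to the shControl mean was 0.27 and 0.28 on the shLSD1 arrays, against -0.01 and 0.01 on the shControl arrays, for the 4 non-oxidative genes. For the 3 measured oxidative genes it was -0.0026 and -0.04 on the shLSD1 arrays, against -0.01 and 0.01 on the shControl arrays. The difference between the branches was not tested, and Tkt made the largest contribution to the non-oxidative mean.

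**Figure D3:**
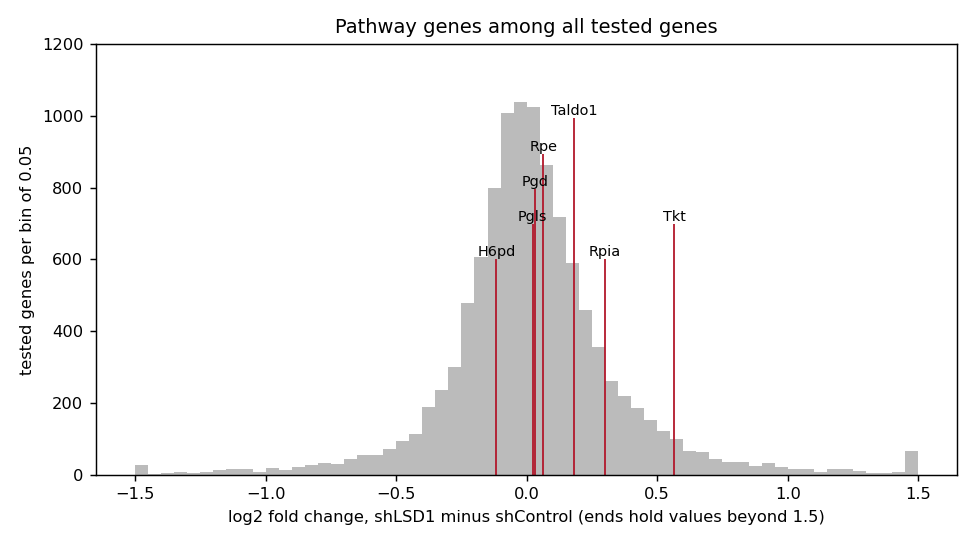
Number of tested genes by log2 fold change, shLSD1 minus shControl, in bins of 0.05, with the 7 measured pathway genes as red lines (line heights only separate the labels). Tkt at 0.57 lies in the upper tail, Rpia at 0.30 and Taldo1 at 0.18 lie on the upper side, and the other 4 lie between -0.12 and 0.06.

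Because Tkt, Rpia and Taldo1 share this order between the groups, their promoter windows are shown, each from 250 bases before to 50 bases after the transcription start (RefSeq, GRCm38.p6, written 5′ to 3′ on the strand of the gene). All 8 member symbols matched this set, with 9 windows, since Pgd has 2. Capitals mark GC boxes (GGGCGG, either strand) and CCAAT boxes (CCAAT, either strand). The windows are chr14:30548881-30549180 on the plus strand for Tkt, chr6:70792126-70792425 on the minus strand for Rpia and chr7:141391910-141392209 on the plus strand for Taldo1.
Tkt: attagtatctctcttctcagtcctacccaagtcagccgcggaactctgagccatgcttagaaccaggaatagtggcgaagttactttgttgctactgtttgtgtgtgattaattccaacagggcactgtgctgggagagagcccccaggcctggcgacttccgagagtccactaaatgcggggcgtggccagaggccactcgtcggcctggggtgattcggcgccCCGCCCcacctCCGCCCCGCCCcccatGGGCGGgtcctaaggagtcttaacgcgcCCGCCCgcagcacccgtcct
Rpia: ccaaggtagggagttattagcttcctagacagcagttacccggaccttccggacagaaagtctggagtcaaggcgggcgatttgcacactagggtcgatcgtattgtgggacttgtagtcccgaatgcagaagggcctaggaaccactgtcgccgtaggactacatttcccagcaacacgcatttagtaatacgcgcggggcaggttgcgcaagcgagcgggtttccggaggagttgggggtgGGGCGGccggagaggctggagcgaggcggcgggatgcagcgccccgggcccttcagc
Taldo1: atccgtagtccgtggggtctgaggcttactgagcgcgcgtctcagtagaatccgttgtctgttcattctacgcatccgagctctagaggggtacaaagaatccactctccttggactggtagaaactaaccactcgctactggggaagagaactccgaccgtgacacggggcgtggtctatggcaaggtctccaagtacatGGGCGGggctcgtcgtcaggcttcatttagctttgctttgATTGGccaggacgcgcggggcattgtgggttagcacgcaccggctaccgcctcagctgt
The Tkt window held 5 GC boxes, 2 of which overlap by 1 base, all close to the start. The Rpia and Taldo1 windows held 1 each, and Taldo1 also held 1 CCAAT box. GC boxes occurred in 35.7% of 32851 windows of this length, 5 or more of them in 2.71%, and CCAAT boxes in 37.4%. The core of the antioxidant response element, TGACNNNGC on either strand, was in none of these 3 windows and in 12.4% of all windows. It was found in 2 of the 9 member windows, those of G6pdx and of the downstream start of Pgd. GC boxes were in 7 of these 9 windows, those of Pgls and Rpe included, and CCAAT boxes in 4. These matches describe the letters in the windows and were not related to the signals.

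By a fixed measure of likeness, the 3 tested genes nearest to Tkt were Sigirr, Hmgb2 and Atf3, at distances of 0.04, 0.05 and 0.05. The measure was the Euclidean distance between centred log2 signals over the 4 arrays. These genes were picked for likeness to Tkt, so their change and order between the groups follow from the selection. Hmgb2, a chromatin protein of the high mobility group, had 2216 and 2006 on the shLSD1 arrays, against 1369 and 1485 on the shControl arrays (limma adjusted p = 0.00297). Atf3, a stress-induced transcription factor, had 436 and 367 on the shLSD1 arrays, against 259 and 279 on the shControl arrays (limma adjusted p = 0.0269). Sigirr, a negative regulator of interleukin-1 receptor signalling, had 169 and 142 on the shLSD1 arrays, against 100.1 and 110.3 on the shControl arrays, and did not pass (limma adjusted p = 0.116). The Atf3 call was lost without shLSD1 replicate 1, without either shControl array, with no filter and without the intensity trend, and that of Hmgb2 with the mean of all its probe sets.

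Genes that feed, bypass or use the pathway were followed in 7 lists of connected reactions, with 81 of 102 written genes tested. Of these, 19 were higher and 4 lower in shLSD1 cells, which is 28.4% called against 15.8% of all tested genes. The lists were chosen with earlier results of these data known, so this share and the calls in it are no test of the lists. Many of these calls did not hold under other settings: 6 of the 23 held without shControl replicate 1 (Gclm, Hk1, Hsd11b1, Nqo1, Pfkm and Pfkp), 4 without shControl replicate 2 (Fdft1, Hk1, Maff and Pfkp) and 3 without the intensity trend (Hk1, Nqo1 and Pfkp). With the mean of all probe sets 10 held, with no filter 14, without shLSD1 replicate 1 18 and without shLSD1 replicate 2 21. Of the list genes named below, Prps1, Prps2, G6pd2, Tktl1, Tktl2, Tpi1, Idh1, Keap1 and Hmox1 were also chosen after their values were seen.

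Among genes of ribose and ribose phosphate handling, 1 of 11 tested rose, 0 fell and the median log2 fold change was 0.21. The gene that rose was Dera, the deoxyribose-phosphate aldolase, with 852 and 1013 on the shLSD1 arrays, against 720 and 727 on the shControl arrays (0.36, SE 0.10, limma adjusted p = 0.0495). The Dera call was lost under 8 of 14 alternatives, among them quantile normalization (limma adjusted p = 0.0591), median centring (limma adjusted p = 0.0602) and no filter (limma adjusted p = 0.0833). Leaving out shLSD1 replicate 2, another of these, gave 0.24. With the mean of all its probe sets Dera turned to -0.36, but no other Dera probe set was above the filter. With the mean of those above the filter it stayed at 0.36 (limma adjusted p = 0.0469). Pgm2, which interconverts pentose phosphates, measured 0.30 (limma adjusted p = 0.0968), and Rbks, the ribokinase gene, measured 0.64 (limma adjusted p = 0.0968). The phosphoribosyl pyrophosphate synthetase genes Prps1 and Prps2, which take up the ribose 5-phosphate that Rpia makes, measured 0.30 (limma adjusted p = 0.165) and -0.04 (limma adjusted p = 0.819). The relatives of members G6pd2, Tktl1 and Tktl2 were below the filter, with signals of at most 20.9 on the shLSD1 arrays and 33.9 on the shControl arrays.

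At the branch points with glycolysis, 2 of 10 tested genes rose and 1 fell, with a median of 0.11. Hk1, a hexokinase that makes the glucose 6-phosphate both pathways draw on, had 3252 and 3075 on the shLSD1 arrays, against 2229 and 2236 on the shControl arrays (0.50, limma adjusted p = 0.00146). The platelet-type phosphofructokinase Pfkp had 2850 and 3087 on the shLSD1 arrays, against 1757 and 1736 on the shControl arrays (0.76, limma adjusted p = 0.000452). The muscle-type phosphofructokinase Pfkm fell by 0.37, with 2413 and 2408 on the shLSD1 arrays, against 3050 and 3173 on the shControl arrays (limma adjusted p = 0.00433). The triose phosphate isomerase gene Tpi1, on a substrate that transketolase also makes, measured 0.15 (limma adjusted p = 0.0517).

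Of 12 tested genes for other NADPH sources, 2 rose and 0 fell, with a median of 0.11. Me1, the cytosolic malic enzyme, had 1728 and 1825 on the shLSD1 arrays, against 1445 and 1490 on the shControl arrays (0.28, SE 0.06, limma adjusted p = 0.0269). Idh2, the mitochondrial NADP-dependent isocitrate dehydrogenase, had 2906 and 2951 on the shLSD1 arrays, against 2356 and 2457 on the shControl arrays (0.28, SE 0.06, limma adjusted p = 0.0132). Its cytosolic counterpart Idh1 measured 0.06 (limma adjusted p = 0.403), and Aldh1l1, a folate enzyme, measured 1.18 with a wide error (SE 0.34, limma adjusted p = 0.0540).

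Among NADPH users, 4 of 10 redox genes rose and 0 fell, with a median of 0.17. Nqo1, a quinone reductase, had 308 and 271 on the shLSD1 arrays, against 166 and 140 on the shControl arrays (0.92, SE 0.17, limma adjusted p = 0.0103). Txnrd1, thioredoxin reductase, had 4336 and 4927 on the shLSD1 arrays, against 3712 and 3766 on the shControl arrays (0.31, limma adjusted p = 0.0211), while 2 further probe sets, both above the filter, measured -0.01 and 0.24, and the mean of all 3 gave 0.18 (limma adjusted p = 0.392). Gsr, glutathione reductase, had 1163 and 1151 on the shLSD1 arrays, against 936 and 962 on the shControl arrays (0.29, limma adjusted p = 0.0327). The fourth was Blvrb, a biliverdin and flavin reductase gene, at 0.40 (limma adjusted p = 0.0340). Of 9 tested genes of NADPH-dependent synthesis, 4 rose and 2 fell, with a median of 0.18. The genes that rose were Elovl6 of fatty acid elongation (0.34, limma adjusted p = 0.0103), Fdft1 (0.34, limma adjusted p = 0.00415) and Sqle (0.21, limma adjusted p = 0.0256) of cholesterol synthesis, and fatty acid synthase, Fasn (0.25, limma adjusted p = 0.0220). With the mean of all probe sets, the dim ones included, Elovl6 gave 0.998 (limma adjusted p = 0.0187) and Fdft1 gave 0.56 (limma adjusted p = 0.0679). With the mean of those above the filter, Elovl6 gave 0.33 and did not pass (limma adjusted p = 0.0530). Fdft1 then gave 0.32 and passed (limma adjusted p = 0.00366). Besides Hsd11b1, Tecr of fatty acid elongation fell by 0.24 (limma adjusted p = 0.0420), and by 0.16 without shLSD1 replicate 2 (limma adjusted p = 0.0475). Blvrb, Sqle, Fasn and Tecr are named after their values were seen.

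**Figure D4:**
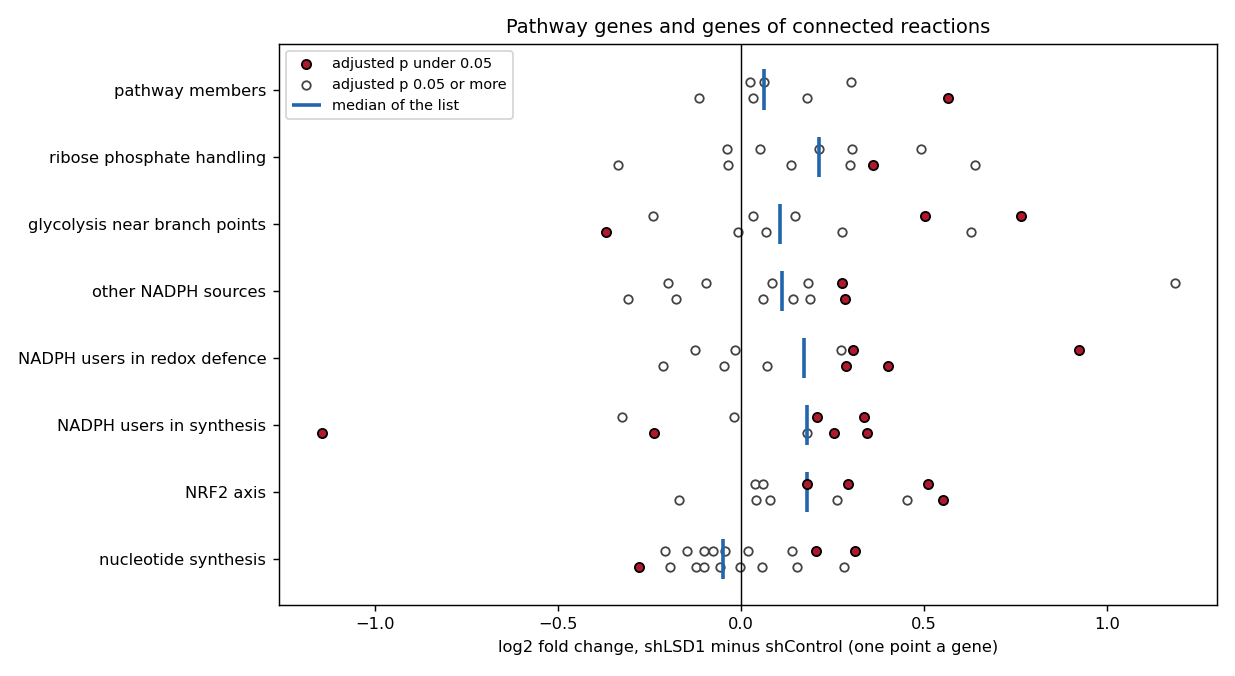
Log2 fold change, shLSD1 minus shControl, of each tested gene among the pathway members and in the 7 lists of connected reactions, 1 point a gene (vertical offset only separates points). Filled points passed an adjusted p of 0.05 and blue bars are list medians. The redox list has 4 filled points of 10, all to the right of 0, and the member row has 1 of 7.

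NRF2, encoded by Nfe2l2, is a transcription factor known to drive several genes of the pathway, Tkt and Taldo1 among them. Of 11 tested genes of its axis, 4 rose and 0 fell, with a median of 0.18. Nfe2l2 had 4691 and 4597 on the shLSD1 arrays, against 3883 and 3708 on the shControl arrays (0.29, SE 0.05, limma adjusted p = 0.00887). With the mean of all its probe sets, of which only the representative was above the filter, Nfe2l2 gave 0.15 (limma adjusted p = 0.826). Gclm, a subunit of the enzyme that starts glutathione synthesis, had 747 and 676 on the shLSD1 arrays, against 555 and 423 on the shControl arrays (0.55, limma adjusted p = 0.0345), and without shControl replicate 2 it gave 0.36 (limma adjusted p = 0.174). Sqstm1, which binds the NRF2 inhibitor Keap1, was higher by 0.18 (limma adjusted p = 0.0370), while its other probe set gave -0.19 and the mean of both gave -0.0066. The fourth, Maff, a partner of NRF2 named after its value was seen, was higher by 0.51 (limma adjusted p = 0.0485). The Maff call was lost under 8 of 14 alternatives, with adjusted p-values of 0.0525 after quantile normalization, 0.0502 after median centring, 0.0887 with no filter, 0.0503 with the stricter filter and 0.0939 with the mean of all probe sets, and without shControl replicate 1 the change was 0.32 (limma adjusted p = 0.256). Keap1 measured 0.26 (limma adjusted p = 0.143), and Hmox1, a classical NRF2 target, measured 0.08 (limma adjusted p = 0.786). A link between NRF2 and the pathway genes in these cells was not tested.

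In the synthesis of purines and pyrimidines, which uses ribose phosphate, 2 of 18 tested genes rose and 1 fell, with a median of -0.05. Adss, an adenylosuccinate synthase, had 4257 and 4286 on the shLSD1 arrays, against 3500 and 3389 on the shControl arrays (0.31, limma adjusted p = 0.00623). Its muscle isozyme gene Adssl1 fell by 0.28, with 1330 and 1337 on the shLSD1 arrays, against 1551 and 1685 on the shControl arrays (limma adjusted p = 0.0340). Paics, of purine ring assembly, was higher by 0.21 (limma adjusted p = 0.0370), while its other 2 probe sets gave -0.01 and 0.07 and the mean of all 3 gave 0.09 (limma adjusted p = 0.581).

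The chromosomal surroundings of the members were read from the order of genes in the GRCm38.p6 gene table, with 5 tested genes on either side of each. Of the 70 neighbours, 11 passed, or 15.7%, which is near the 15.8% of all tested genes, and their median log2 fold change was 0.01. The gene next to Tkt that passed was Prkcd, a protein kinase C gene, with 637 and 632 on the shLSD1 arrays, against 486 and 506 on the shControl arrays (0.36, limma adjusted p = 0.0368). Near Rpia, the mitotic checkpoint gene Mad2l1 rose by 0.34, while Gadd45a, a growth arrest gene, fell by 0.26 and Smyd1, a muscle histone methyltransferase gene, fell by 0.83. Near Taldo1, the triglyceride lipase gene Pnpla2 rose by 0.62. Beside Rpe, Map2 of neuronal microtubules rose by 1.33 and the zinc finger gene Ikzf2 fell by 0.46. Near Pgls, the fatty acid transporter gene Slc27a1 rose by 0.77 and Bst2, an interferon-induced membrane protein gene, by 0.62. Errfi1, an inhibitor of the epidermal growth factor receptor, rose by 0.34 near H6pd, and the kinesin gene Kif1b fell by 0.30 next to Pgd. Of these 11 calls, those of Map2 and Smyd1 alone held without shControl replicate 2. With the mean of all its probe sets Smyd1 gave -0.64 (limma adjusted p = 0.198), and with the mean of those above the filter -0.43 (limma adjusted p = 0.134). Kif1b gave -0.16 with either mean (limma adjusted p = 0.407 and 0.345), and Pnpla2 turned to -0.83 with the mean of all (limma adjusted p = 0.529). Without shLSD1 replicate 1, Errfi1 gave 0.21 (limma adjusted p = 0.0447).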

How the data were processed

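Total RNA of 2 shLSD1 and 2 shControl samples was measured on 1 array each, grouped by sample title. The deposited value is a linear signal intensity per probe set, made by the authors with MAS5 and Affymetrix Expression Console, per the submitters' processing notes; no software version is named there. After trimming 2% at each end, every array had a mean of 500.003, so 1 scaling factor an array had been applied. Signals under 1 were set to 1 before log2 (505 to 704 of 45101 probe sets an array). Of the probe sets, 34945 had exactly 1 annotated symbol, 932 had more than 1, 9160 had no symbol and 64 were controls, which were left out.

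The groups were compared with limma 3.58.1 in R 4.3.3 (lmFit, eBayes with an intensity trend), two-sided, with Benjamini-Hochberg adjustment over 10879 genes or 19958 probe sets and a threshold of 0.05. A log2 fold change is shLSD1 minus shControl. The genes named are Kdm1a, all members, up to 3 of each list by adjusted p, the 3 nearest in pattern to a called member, and called neighbours; list genes outside this rule are marked in the text as chosen after their values were seen. Members, lists and tests were chosen with earlier results of these data known. The fit was tested on simulated data with known changes. The number of arrays limits the precision. Results were recomputed with log2(signal + 32), after quantile normalization or median centring, with the replicate number as a block, without each array, and with other filters (none, or log2 8.91), no trend, robust variance (statmod 1.5.0), means of probe sets and thresholds of 0.01 and 0.10. Figures were drawn with matplotlib 3.10.9.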

Additional observations from a re-analysis of the deposited data

How the results depend on the processing

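Among 7 member genes, 1 passed, and the count was 0 without the intensity trend, with the mean of all probe sets and at a threshold of 0.01, 2 with the mean of probe sets above the filter (Tkt and Rpia) and 3 at 0.10. Leaving out 1 array gave 0 to 1. Among 12 member probe sets, 3 passed, and the count was 0 without the trend, 1 at 0.01 and 6 at 0.10, and 0 to 3 with 1 array left out. Over all genes, 1723 passed, against 637 without the trend, 901 with the mean of all probe sets, 763 at 0.01, 2596 at 0.10 and 580 to 2192 with 1 array left out. Over all probe sets, 2357 passed, against 1528 with no filter, 283 without the trend, 936 at 0.01, 3642 at 0.10 and 775 to 2885 with 1 array left out. The cause of these shifts was not tested. Without 1 array, the lone array of a group is assumed to vary like the other group.

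The sign of Tkt, Rpia, Taldo1 and H6pd was the same under every alternative in which the gene was tested, with ranges of 0.28 to 0.67, 0.28 to 0.32, 0.13 to 0.24 and -0.14 to -0.09. The sign of Pgd changed under 1 of 14 alternatives and that of Pgls and Rpe under 2 each, with no call. With the mean of all probe sets, Dera gave -0.36 and Pnpla2 -0.83, and Sqstm1 gave -0.0066 with either mean of probe sets, none of them called. The Dera mean took in signal below the filter, since no other Dera probe set was above it.

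The deviations of same-numbered arrays from their group means correlated by 0.0029 over tested genes. This value cannot show whether same-numbered samples share a batch, and the labels do not say. With the replicate block 2220 genes and 3078 probe sets passed, as did 1 member gene and 4 member probe sets, the added one being Pgd 1438627_x_at (-0.29, limma adjusted p = 0.0336). Probe sets near background, such as 1 of Tkt and 1 of Rpe, have signals too low for a change to be read.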
